A study of Rattus norvegicus with 60 samples.

Results

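Livers of rats dosed with p-toluidine at 120 mg/kg were compared with livers of rats dosed with the vehicle alone, across every non-control probe set of a rat expression array. The comparison used 10 of the 60 arrays of the series, 5 titled p-toluidine 120 mg/kg and 5 titled p-toluidine vehicle, picked by those titles. All animals were male F344/N rats, an inbred laboratory strain, 5 to 6 weeks old when the study began. No genetic change is named in the labels. The treated rats received p-toluidine in corn oil by gavage once a day for 5 days in a row, and the vehicle rats received the corn oil. The labels give matching groups of 5 arrays at 1, 6, 20 and 60 mg/kg of p-toluidine, and a parallel set of 30 arrays for N,N-dimethyl-p-toluidine (DMPT), with a vehicle group of its own. RNA came from frozen pieces of the left lateral lobe of the liver. The labels tie neither arrays to animals nor animals to cages, so the p-values below measure the spread between these samples, which may be partly technical.

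p-Toluidine is a primary aromatic amine, an aniline ring with a methyl group opposite the nitrogen. DMPT is the same ring with methyl groups on the nitrogen in addition. Aromatic amines are oxidised on the nitrogen by liver P450 enzymes, and the products can be acetylated, conjugated to glutathione, glucuronic acid or sulphate, or bind to protein and DNA. NRF2 is a transcription factor that its partner KEAP1 holds back until reactive chemicals modify KEAP1. It then binds antioxidant response elements near the genes of conjugating and reducing enzymes. The male liver of the rat also has a sex-specific programme of P450, sulphotransferase and carrier protein genes, which is set by pulses of growth hormone.

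Values are log2 expression after robust multi-array averaging (RMA), and levels of different probe sets are not compared. Changes are differences of group means ± their standard error, from a limma fit to the 30 p-toluidine arrays, with 5 arrays in each group. A gene was called changed at a Benjamini-Hochberg adjusted p of at most 0.05 over all 31042 probe sets. Each gene was represented by 1 probe set, which gave 14217 genes.

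The 10 arrays had medians between 2.73 and 2.78. The livers carried the markers of hepatocytes, with albumin (Alb) at 13.66 in the vehicle group and 13.67 at 120 mg/kg. Vehicle replicate 5 stood apart from the other vehicle arrays. In that array 35 genes (0.246% of genes) lay more than 1 log2 unit outside the range of the other 4 vehicle arrays, against 1 to 8 genes in each other array of both groups. Several of these genes are sex-biased: Cyp2c11 was at 9.37 against 11.23 to 11.54 in the other vehicle arrays, and the female-biased Cyp2c12 was at 9.13 against 6.71 to 7.92. The Y-linked genes Eif2s3y (6.54 or more) and Uty (5.86 or more) were well expressed and Xist was at 1.28 or less in all 30 p-toluidine arrays. For some of the genes and lists that this array touches, results are also given without it. The 3′ to 5′ difference of the beta-actin control probe sets, a gauge of RNA integrity, was 1.52 ± 0.085 (SD, n = 5) at 120 mg/kg and 1.80 ± 0.147 (SD, n = 5) in vehicle. That is a difference of -0.29, with an exact two-sided permutation p of 0.0238 (0.0476 adjusted over both gauges). The part of this gauge in the results was not tested beyond a fit that carried it as a covariate.

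At 120 mg/kg, 3337 of the 31042 probe sets were called against vehicle, 1763 higher and 1574 lower. By gene, 1115 of 14217 were called higher (7.84%) and 983 lower (6.91%), and the median change over all genes was -0.0025. Among the called genes 86 were at least 2-fold higher and 62 at least 2-fold lower. In 1644 genes (11.6%) the 5 dosed and 5 vehicle arrays did not overlap. Without vehicle replicate 5, 3291 probe sets were called. Over the 30 p-toluidine arrays, 20.0% of the variance lay along principal component 1. The 120 mg/kg arrays lay between 19.3 and 32.1 on it, the 60 mg/kg arrays between 5.58 and 16.8, and the vehicle arrays between -20.3 and -8.72. The groups of the highest dose, the next dose and vehicle therefore did not overlap on that component.

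**Figure D1:**
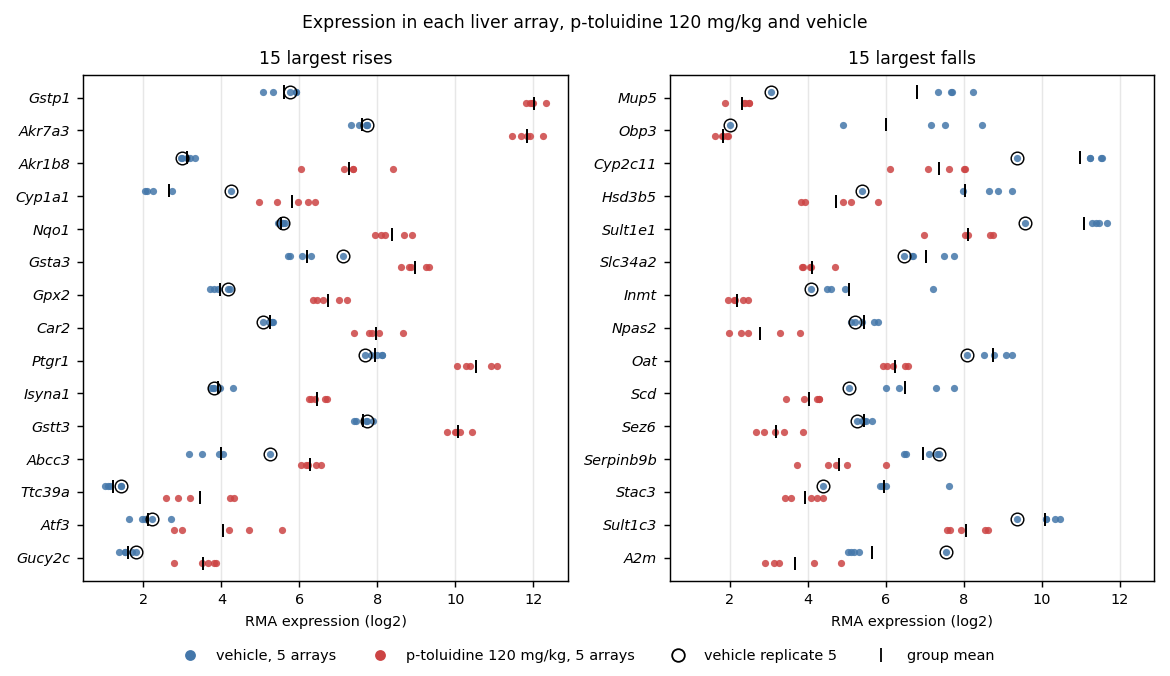
Expression (RMA, log2) of the 15 largest rises and 15 largest falls that met the naming rule, in 5 vehicle arrays (blue) and 5 arrays at 120 mg/kg (red). Bars mark group means and open circles vehicle replicate 5. The dosed and vehicle arrays overlap in 1 of the 30 genes, Hsd3b5. The naming rule itself favours groups that lie apart. Over all 14217 genes, 1644 (11.6%) did not overlap.

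The largest rise was that of Gstp1, the pi-class glutathione S-transferase, which is low in normal rat liver and is the classic marker of preneoplastic foci there. Gstp1 was at 5.08, 5.91, 5.32, 5.90 and 5.77 in the vehicle arrays and at 11.92, 11.96, 11.82, 11.99 and 12.32 at 120 mg/kg. All 5 dosed arrays lay more than 5 log2 units above every vehicle array. Its level rose by 6.41 ± 0.32, or 84.8-fold (adjusted p = 7.35e-15). The next largest was that of Akr7a3, whose enzyme reduces the reactive dialdehyde of aflatoxin. It was at 7.32 to 7.74 in vehicle and 11.46 to 12.26 when dosed, a rise of 4.22 ± 0.23. Akr1b8, a reductase of the aldose reductase family, was at 3.33, 3.18, 3.12, 2.95 and 2.99 in vehicle and at 8.41, 7.38, 6.05, 7.14 and 7.37 when dosed. It rose by 4.15 ± 0.26, from a level low on the array's scale, with the dosed arrays spread over more than 2 log2 units.

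These genes belong to a list of 35 NRF2 targets, of which 29 were measured. In that list 22 of 29 rose and none fell, beside 7.84% of all genes called higher, and the list's median change was 0.67. The count lay between 20 and 23 in every fit that left out 1 array. Nqo1, a quinone reductase, was at 5.44 to 5.64 in vehicle and at 8.69, 8.09, 7.94, 8.20 and 8.89 when dosed, a rise of 2.82 ± 0.19. Gpx2, a glutathione peroxidase typical of gut epithelium, rose by 2.76 ± 0.19, from 3.70 to 4.23 in vehicle up to 6.35 to 7.22. Abcc3, which exports glucuronides across the blood-facing membrane of hepatocytes, rose by 2.30 ± 0.31. Its vehicle arrays were at 4.04, 3.18, 3.51, 3.94 and 5.24, and the highest of these was vehicle replicate 5. Ephx1, the microsomal epoxide hydrolase, rose by 1.51 ± 0.11, and Gclm, the modifier subunit of the enzyme that starts glutathione synthesis, by 1.18, from 8.29 to 8.45 up to 9.40 to 9.73. Hmox1, which breaks down heme, rose by 0.77 ± 0.12. Other members that are often used to follow NRF2 did not pass: Gclc, the catalytic partner of Gclm, changed by 0.29 (adjusted p = 0.10), Txnrd1 by -0.12 (adjusted p = 0.37) and Srxn1 by 0.01 (adjusted p = 0.97).

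The upstream sequences of 4 of the genes with large rises are shown because the antioxidant response element is the DNA that NRF2 binds. They are the 250 bases before the RefSeq gene start (rat build GRCr8), 5′ to 3′ on the gene's strand, with matches to the element's core, TGACNNNGC on either strand, in capitals. Gstp1 is at chr1:210769706-210769955 (minus strand), Gsta3 at chr9:31154739-31154988 (plus), Gpx2 at chr6:101230034-101230283 (minus) and Akr7a3 at chr5:156876471-156876720 (plus).
Gstp1: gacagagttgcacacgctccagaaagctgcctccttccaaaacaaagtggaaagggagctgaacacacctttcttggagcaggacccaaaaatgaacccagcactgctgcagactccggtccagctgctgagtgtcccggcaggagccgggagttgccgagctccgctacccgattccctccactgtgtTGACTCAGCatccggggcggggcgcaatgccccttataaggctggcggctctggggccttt
Gsta3: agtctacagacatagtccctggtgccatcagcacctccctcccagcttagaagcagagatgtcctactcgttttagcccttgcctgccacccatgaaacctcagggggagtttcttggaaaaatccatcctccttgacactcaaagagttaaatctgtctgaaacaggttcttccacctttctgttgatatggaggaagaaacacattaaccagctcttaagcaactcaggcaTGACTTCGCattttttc
Gpx2: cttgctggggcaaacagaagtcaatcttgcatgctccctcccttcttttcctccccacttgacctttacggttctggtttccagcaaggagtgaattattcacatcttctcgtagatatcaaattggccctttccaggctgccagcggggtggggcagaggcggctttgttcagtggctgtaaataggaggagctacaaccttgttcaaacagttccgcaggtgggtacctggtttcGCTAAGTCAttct
Akr7a3: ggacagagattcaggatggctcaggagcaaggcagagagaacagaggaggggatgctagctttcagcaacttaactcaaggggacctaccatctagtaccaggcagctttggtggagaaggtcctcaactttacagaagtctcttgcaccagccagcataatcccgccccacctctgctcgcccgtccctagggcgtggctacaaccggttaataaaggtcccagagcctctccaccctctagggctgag
Gstp1, Gsta3 and Gpx2 each held 1 match and Akr7a3 none, which says only that these letters are not in this window. Windows were found for 9 of the 15 genes with the largest rises, and 4 of the 9 held a match, as did 5 of the 26 NRF2 targets with a window. The share was 10.2% of all 27457 windows of the table and 12.3% of the 11700 windows of array genes. Over the called genes it was 11.7% for rises and 13.7% for falls, near the share for the array.

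Of the glutathione S-transferases, the enzymes that join glutathione to reactive products, 13 of 20 measured rose and 1 fell, with a median of 0.54. Over all genes 7.84% were called higher and 6.91% lower, and each list count against vehicle below is to be read beside these shares. Gsta3, of the alpha class, was at 6.30, 5.71, 6.06, 5.76 and 7.12 in vehicle and at 9.32, 8.82, 8.59, 8.87 and 9.24 when dosed. It rose by 2.78 ± 0.29, and its highest vehicle array was vehicle replicate 5. Gstt3, of the theta class, rose by 2.43 ± 0.17, from 7.40 to 7.89 in vehicle up to 9.79 to 10.42. Gsta4, which conjugates the lipid peroxidation product hydroxynonenal, rose by 1.32 ± 0.09. Gstm1, of the mu class, rose by 1.24 ± 0.09, from 10.70 to 11.19 in vehicle to between 12.10 and 12.39. Gstm7 was the member that fell, by 0.48. Gstp1, Gsta4 and Gstm1 are also on the NRF2 list, so their rises are counted in both. Genes of this family are alike in sequence, and the array may not keep all of their transcripts apart.

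Among the aldo-keto reductases and aldehyde dehydrogenases, which reduce or oxidise aldehydes and ketones, 9 of 23 rose and 2 fell. Beside Akr7a3 and Akr1b8, Aldh1a1, the retinaldehyde dehydrogenase, rose by 1.37 ± 0.12. Akr1b7, a female-biased aldose reductase relative, rose by 2.61 ± 0.66, but its values were scattered. Akr1b7 was at 5.40, 4.44, 3.86, 2.38 and 2.45 in vehicle and at 6.15, 7.63, 7.67, 6.68 and 3.43 when dosed, so the groups overlapped. Akr1c1, a hydroxysteroid dehydrogenase, fell by 1.97 ± 0.34, with vehicle replicate 5 (5.36) below the other vehicle arrays (6.98 to 7.25). Ptgr1, which reduces the double bonds of prostaglandins and of lipid aldehydes, was not on a list and rose by 2.59 ± 0.18, from 7.69 to 8.11 up to 10.04 to 11.07.

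Of 16 glucuronosyltransferases, sulphotransferases and their suppliers measured, 9 rose and 3 fell, and the median was 0.30. Ugt2b1 rose by 1.29 ± 0.11, from 9.09 to 9.68 up to 10.43 to 10.80, Ugt2b7 rose by 1.36 ± 0.21, and Ugdh, which makes the glucuronic acid donor, rose by 1.19. The 3 members of this list that fell are sulphotransferases, and another sulphotransferase, Sult2a6, rose (0.96 ± 0.25). Sult1e1, the oestrogen sulphotransferase, fell by 2.96 ± 0.51, from 11.37, 11.47, 11.67, 11.28 and 9.56 in vehicle to 8.66, 6.99, 8.03, 8.11 and 8.75, and by 3.34 without vehicle replicate 5, its lowest vehicle array. Sult1c3, from 9.35 to 10.45 in vehicle to 7.57 to 8.61, fell by 2.02 ± 0.21, and Sult1a1, the phenol sulphotransferase, fell by 0.51.

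The P450 and flavin-containing oxidases that can act on aromatic amines moved both ways, with 5 of 19 rising, 7 falling and a median of -0.13. Cyp1a1, which the aryl hydrocarbon receptor (AhR) induces, was at 2.05, 2.09, 2.24, 2.73 and 4.24 in vehicle and at 6.23, 5.42, 4.96, 6.41 and 5.97 when dosed. Cyp1a1 rose by 3.13 ± 0.44 (adjusted p = 6.56e-06), and by 3.52 without vehicle replicate 5, its highest vehicle array. Cyp1a2, the main N-hydroxylase of aromatic amines in liver and also an AhR target, fell by 0.85 ± 0.13, from 10.17 to 10.74 in vehicle to 9.09 to 9.97, with no overlap. Of the 7 AhR targets measured, Cyp1a1 and Nqo1 rose, Cyp1a2 fell, and Cyp1b1 (-0.06), Tiparp (-0.11), Ahrr (-0.01) and Aldh3a1 (-0.13) did not pass. Cyp3a2, a male-predominant steroid 6-beta hydroxylase, was at 11.93 to 12.14 in vehicle and at 10.73, 11.04, 10.97, 10.84 and 10.62 when dosed, a fall of 1.16 ± 0.09. Cyp3a23-3a1 fell by 0.79 ± 0.10 and Cyp3a9 by 1.16. Fmo5 rose by 0.96 and Cyp2e1, the ethanol-inducible P450, was at 12.23 and 12.25 in the 2 groups. The CAR and PXR targets, which those receptors of foreign chemicals induce, counted 7 of 15 higher and 3 lower. The 3 that fell were the Cyp3a genes just named, and Abcc3, Ephx1, Aldh1a1 and Ugt2b1 led the rises. Abcc3 and Ephx1 are also on the NRF2 list, so their rises are counted in both.

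Of 9 genes for N-acetylation, N-methylation and deacetylation, 2 rose and 3 fell. Inmt, an N-methyltransferase of indole and other amines, fell by 2.87 ± 0.38. Inmt was at 4.96, 4.50, 4.59, 7.20 and 4.07 in vehicle and at 2.12, 2.33, 1.95, 2.11 and 2.45 when dosed. The high vehicle value was that of replicate 4, and every dosed array lay below every vehicle array. Nnmt, the nicotinamide N-methyltransferase, fell by 0.45 ± 0.10 and Ces1d, a carboxylesterase, by 0.93 ± 0.14, while Ces2c, another carboxylesterase, rose by 1.00 ± 0.12. The N-acetyltransferases themselves did not pass, with Nat1 at 0.15 (adjusted p = 0.50) and Nat2 at 0.09 (adjusted p = 0.64).

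**Figure D2:**
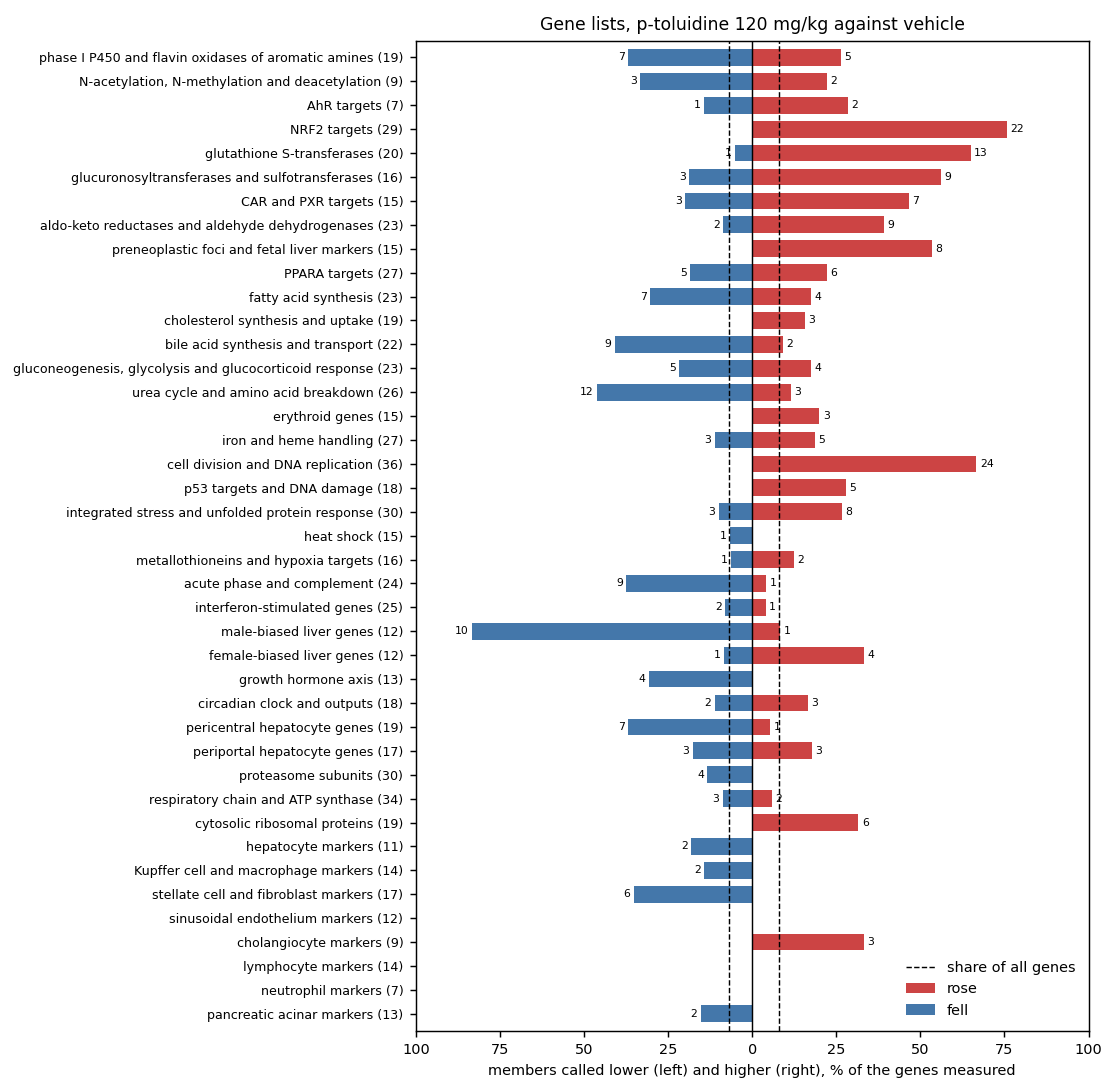
Share of the measured members of each gene list that were called higher (right, red) or lower (left, blue) at 120 mg/kg, in percent, with the number of members called beside each bar and the number measured after each name. Dashed lines mark the share of all genes, 7.84% higher and 6.91% lower; NRF2 targets, cell division genes and glutathione S-transferases reach farthest to the right and male-biased genes farthest to the left.

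Of 36 measured genes of cell division and DNA replication, 24 rose and none fell, beside 7.84% of all genes called higher. The other 12 did not pass, and the median of the 36 changes was 0.73. The count was 17 without vehicle replicate 5, with a median of 0.61, and it was 16 without dosed replicate 5 and 28 without dosed replicate 4. Mki67, a protein of dividing nuclei, was at 5.34, 4.58, 5.58, 3.96 and 3.02 in vehicle and at 6.26, 5.89, 5.48, 5.24 and 6.23 when dosed. Mki67 rose by 1.33 ± 0.38 (adjusted p = 0.0184), and 2 of the vehicle arrays reached into the dosed range. Mcm6, a subunit of the replication helicase, rose by 1.19 ± 0.27 without overlap, from 3.85 to 4.61 up to 4.73 to 6.39. Aurkb, a mitotic kinase, rose by 1.16 ± 0.23, Ccna2, cyclin A2, by 1.15 ± 0.33, and Cdk1, the kinase that drives mitosis, by 0.96. Vehicle replicate 5 was the lowest vehicle array for Mki67, Cdk1, Ccna2 and Mcm6. The call of Mki67 was lost without dosed replicate 1 or 5 or vehicle replicate 4 or 5, and that of Ccna2 without dosed replicate 5 or vehicle replicate 5.

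The upstream sequences of Cdk1 and Mki67 are shown because many mitotic genes carry the cell cycle homology region there. Both are 250 bases before the RefSeq start (GRCr8), with the letters TTTGAA, searched on both strands, in capitals. Cdk1 is at chr20:19265043-19265292 (plus strand) and Mki67 at chr1:199952594-199952843 (minus strand).
Cdk1: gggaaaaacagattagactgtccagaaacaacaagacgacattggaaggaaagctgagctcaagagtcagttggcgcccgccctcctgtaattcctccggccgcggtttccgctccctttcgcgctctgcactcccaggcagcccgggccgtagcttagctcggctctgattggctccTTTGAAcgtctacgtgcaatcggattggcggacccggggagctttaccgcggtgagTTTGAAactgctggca
Mki67: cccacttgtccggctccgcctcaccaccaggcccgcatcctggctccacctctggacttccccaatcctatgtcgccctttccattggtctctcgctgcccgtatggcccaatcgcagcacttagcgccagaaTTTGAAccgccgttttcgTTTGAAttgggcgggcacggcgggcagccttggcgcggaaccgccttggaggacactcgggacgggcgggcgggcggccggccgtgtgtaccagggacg
Each held 2 matches. The letters were found in 9 of the 30 division genes with a window, in 16.0% of all 27457 windows of the table, in 10.9% of array genes and in 12.3% of called rises. They were also in the windows of 3 of the 26 NRF2 targets. Gpx2 and the division gene Birc5 held both this motif and the antioxidant element core, at separate positions in the window.

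p53 targets, which arrest the cell cycle or repair DNA after damage, counted 5 of 18 higher and none lower, beside 7.84% of all genes called higher. The median was 0.21. Ccng1, cyclin G1, rose by 0.77 ± 0.11, from 5.51 to 5.86 in vehicle up to 7.06, 6.50, 6.16, 6.39 and 6.28. Mgmt, which removes alkyl groups from guanine, rose by 0.72 ± 0.12, and Fas, a death receptor, by 0.59 ± 0.13, although the other 2 Fas probe sets did not pass (0.07 and 0.30). Cdkn1a, the cell cycle inhibitor p21, rose by 0.70 ± 0.23 (adjusted p = 0.0417), a call lost in 8 of the 10 fits that left out 1 array. The list's count fell to 3 when dosed replicate 1, 3 or 4 or vehicle replicate 2 or 4 was left out.

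Of 30 genes of the integrated stress and unfolded protein responses, 8 rose and 3 fell, and enzymes of amino acid supply were among the larger rises. Psat1 and Phgdh, enzymes of serine synthesis, rose by 1.65 ± 0.39 and 1.49 ± 0.28. Phgdh was at 4.07 to 5.57 in vehicle and 6.37 to 6.84 when dosed. Asns, asparagine synthetase, rose by 1.28 ± 0.39 (adjusted p = 0.0302), with overlapping groups and a call lost in 6 of the 10 fits that left out 1 array. Atf3, a stress-induced transcription factor, rose by 1.94 ± 0.48, from 1.95, 1.62, 2.70, 2.04 and 2.23 up to 3.00, 5.55, 2.79, 4.20 and 4.71. Its low level and its scatter among dosed arrays go with a wide error. Ddit3 (0.13), Trib3 (0.57) and Chac1 (0.90), targets of the ATF4 arm, did not pass. The list's 11 calls became 5 without vehicle replicate 2 and 7 without dosed replicate 2. Heat shock genes counted none of 15 higher and 1 lower, Hsph1, which fell by 0.74 ± 0.20, a call lost without dosed replicate 2. The list's count was 3 without dosed replicate 1 and 2 without dosed replicate 3 or 5 or vehicle replicate 1. It was 4 with the mean over all probe sets of a gene. With the beta-actin gauge in the fit, 1 member was called higher and none lower. Another Hsph1 probe set also fell (-0.89), as did another of Dnajb1 (-0.34), whose brightest probe set did not pass (-0.22).

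Male-biased genes were among the largest falls. Of 12 measured, 10 fell and 1 rose, with a median of -1.25 beside 6.91% of all genes called lower. Mup5, a major urinary protein that carries pheromones, fell by 4.48 ± 0.92, from 7.32, 7.70, 8.24, 7.66 and 3.05 in vehicle to 2.39, 2.36, 2.49, 2.48 and 1.87. Obp3, a relative of Mup5, fell by 4.19 ± 1.05, from 4.89, 7.15, 8.47, 7.53 and 2.01 to between 1.61 and 1.94. Both were read with probe sets that their names mark as open to cross-hybridisation within the family, and 2 other Mup5 probe sets, which were dim, did not pass (-0.15 and -0.59). Cyp2c11, the main male P450, fell by 3.61 ± 0.39, from 11.23, 11.23, 11.54, 11.52 and 9.37 to 8.02, 6.11, 7.63, 7.07 and 7.99. Hsd3b5, a male-specific ketosteroid reductase, fell by 3.31 ± 0.84, and its groups overlapped through vehicle replicate 5 (5.39) and dosed replicate 3 (5.80). Vehicle replicate 5 was the lowest vehicle array for each of these 4 genes. Without it the falls were 5.42 for Mup5, 5.19 for Obp3, 4.01 for Cyp2c11 and 3.97 for Hsd3b5, and 10 of the 12 genes were still called lower.

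**Figure D3:**
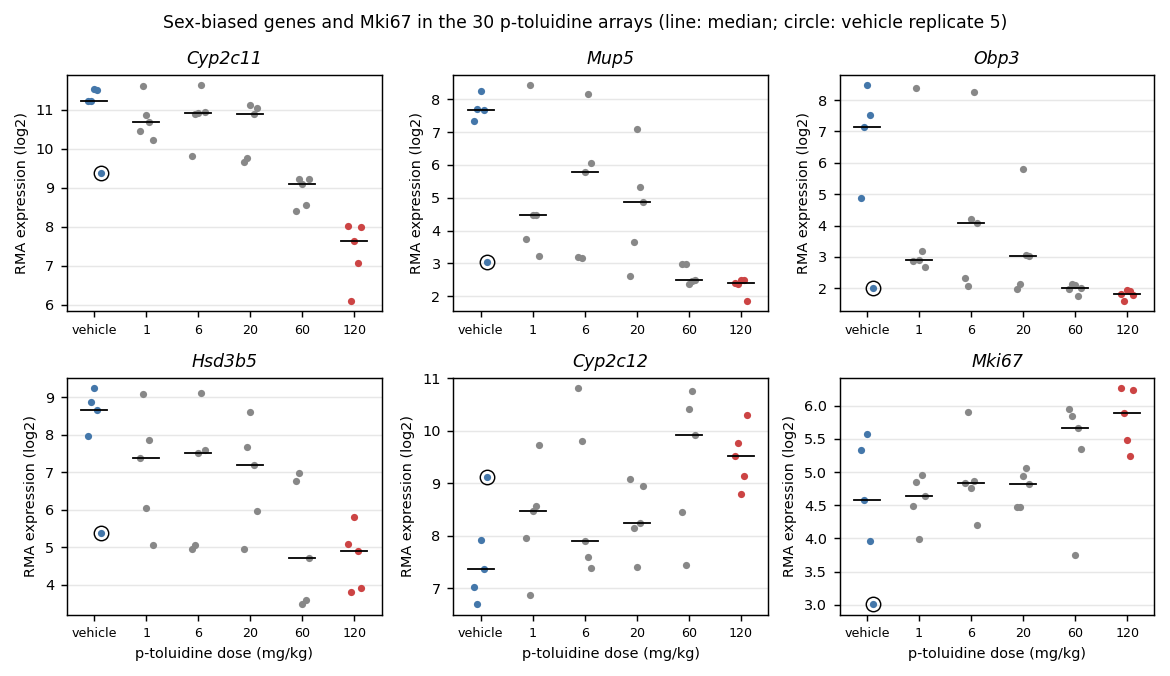
Expression (RMA, log2) of 4 male-biased genes, of the female-biased Cyp2c12 and of Mki67 in each of the 30 p-toluidine arrays by dose, with the median of 5 arrays as a line. Vehicle replicate 5 is circled; it lies at 9.37 for Cyp2c11 and 3.02 for Mki67, and arrays with low Mup5 and Obp3 also occur at 1, 6 and 20 mg/kg.

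Low values of these genes were not confined to the high doses. Mup5 lay between 3.21 and 8.43 at 1 mg/kg, between 3.16 and 8.15 at 6 mg/kg and between 2.61 and 7.08 at 20 mg/kg. At 60 and 120 mg/kg no array was above 2.98. Of 12 female-biased genes, 4 rose and 1 fell, with a median of 0.05. Cyp2c12, the main female P450, rose by 1.87 ± 0.61 (adjusted p = 0.0419) with overlapping groups. That call was lost when any array but dosed replicate 3 or vehicle replicate 5 was left out. Sult2a6, a bile salt sulphotransferase relative, was among the rises, and Hao2, a hydroxy acid oxidase, fell by 1.48 ± 0.21. Of 13 genes of the growth hormone axis 4 fell and none rose, with a median of -0.58. Ghr, the growth hormone receptor, was at 9.45 to 9.58 in vehicle and 8.51 to 8.80 when dosed, a fall of 0.81 ± 0.09, although its other probe set did not pass (-0.23). Igf1 fell by 0.67 ± 0.12, Igfals, which holds IGF1 in the circulation, fell by 1.01 ± 0.21, and Igfbp3 fell by 0.63. Bcl6, a repressor that growth hormone controls, changed by -1.28 ± 0.86 and did not pass (adjusted p = 0.43).

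Of 26 enzymes of amino acid breakdown and the urea cycle, 12 fell and 3 rose, beside 6.91% of all genes called lower and 7.84% called higher. Oat, ornithine aminotransferase, fell by 2.49 ± 0.25, from 8.07 to 9.24 in vehicle to 5.93, 6.57, 6.02, 6.19 and 6.50. Tat, tyrosine aminotransferase, fell by 0.95 ± 0.23, Aass, of lysine breakdown, fell by 0.85 ± 0.10, and Gpt, alanine aminotransferase, rose by 0.84 ± 0.13. The urea cycle's entry enzyme Cps1 was at 11.51 and 11.44 in the vehicle and dosed groups. Oat also stands in the list of genes expressed around the central vein, where 7 of 19 fell and 1 rose. Avpr1a, a vasopressin receptor, fell by 1.94 ± 0.18, from 7.59 to 8.19 in vehicle to 5.30 to 6.57. Car3, carbonic anhydrase 3, fell by 1.42 ± 0.23, from 11.25 to 12.20 to 9.73 to 11.31, with 1 dosed array above vehicle replicate 5. Gstm1 was the member that rose, and Glul, glutamine synthetase, which marks the innermost hepatocytes, did not pass (-0.11). Periportal genes counted 3 of 17 higher and 3 lower; Cdh1 rose by 0.48 ± 0.09 and Fbp1, of gluconeogenesis, fell by 0.46 ± 0.08. In bulk liver, fewer cells of a kind and less RNA per cell cannot be told apart.

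Lipid genes moved in different directions. Scd, the stearoyl-CoA desaturase, fell by 2.45 ± 0.33, from 6.33, 5.99, 7.28, 7.75 and 5.04 to 4.24, 3.45, 4.29, 4.28 and 3.90. The fatty acid synthesis list counted 7 of 23 lower and 4 higher, with Pklr (fell by 0.86 ± 0.09) and Elovl5 (fell by 0.56 ± 0.07) among the falls and Pnpla3 (1.23 ± 0.27) among the rises. Its other Pnpla3 probe sets did not pass (0.74 and 0.19), nor did Fasn, the fatty acid synthase (-0.10). PPARA targets, which burn fatty acids, counted 6 of 27 higher and 5 lower. Acot1, an acyl-CoA thioesterase, rose by 1.90 ± 0.32, from 1.88 to 2.26 up to 3.71 to 4.08, and the fatty acid importer Cd36 by 1.14 ± 0.19. Aqp7 and Cpt1b rose by 1.05 ± 0.20 and 0.96 ± 0.18, while Cyp4a3 fell by 0.86. Cholesterol synthesis genes counted 3 of 19 higher, led by Lss (0.74 ± 0.14), with a median of 0.30. That count was 6 without vehicle replicate 1 or 5 and 1 with the beta-actin gauge in the fit.

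Of 22 genes of bile acid synthesis and transport, 9 fell and 2 rose. Slc27a5, which activates bile acids for conjugation, fell by 1.61 ± 0.15, from 10.07 to 10.44 in vehicle to 8.31 to 9.01. Slco1a4, an uptake carrier, fell by 1.13 ± 0.12, and Abcb11, the bile salt export pump, fell by 0.66 ± 0.11. The exporters to blood, Abcc3 and Abcc4, were the rises, and Cyp7a1, the rate-limiting enzyme of bile acid synthesis, did not pass (0.56, adjusted p = 0.43). In the list of glucose handling and glucocorticoid response 4 of 23 rose and 5 fell. Gckr, which holds glucokinase in the nucleus, fell by 1.05 ± 0.09, and Irs2, an insulin receptor substrate, rose by 0.84 ± 0.26, a call lost in 7 of the 10 fits that left out 1 array.

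Acute phase and complement genes counted 9 of 24 lower and 1 higher. A2m, alpha-2-macroglobulin, fell by 1.98 ± 0.43, from 5.11, 5.03, 5.31, 5.18 and 7.54 to 4.17, 3.12, 3.25, 2.89 and 4.85. The highest vehicle array was again replicate 5, and without it the fall was 1.50. Apcs, serum amyloid P, fell by 1.04 ± 0.11 and Agt, angiotensinogen, fell by 0.59 ± 0.12. Stat3, which transmits interleukin-6 signals, rose by 0.61 ± 0.15 with 1 probe set and not with another (0.13). Interferon-stimulated genes counted 1 of 25 higher and 2 lower, near the 7.84% and 6.91% of all genes, with Cxcl9 falling by 0.87 ± 0.19.

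Erythroid genes, which would report blood-forming cells, counted 3 of 15 higher and none lower. Slc4a1, the red cell anion exchanger, rose by 0.62 ± 0.16 with 1 probe set and not with another (0.24), and Ahsp, which stabilises alpha-globin, rose by 0.57 ± 0.13. The third was Tfrc, also on the iron list, which rose by 0.62 ± 0.19 and did not pass with another probe set (0.59). The call of Tfrc was lost in 6 of the 10 fits that left out 1 array. Alas2, the erythroid heme enzyme, did not pass (0.39, adjusted p = 0.11). With the beta-actin gauge in the fit 1 of the 3 was called, and Slc4a1 was not (adjusted p = 0.058). Iron and heme genes counted 5 of 27 higher and 3 lower, and the 8 calls were 5 without vehicle replicate 5. Slc40a1, the iron exporter ferroportin, rose by 0.39 ± 0.08, while hepcidin (Hamp), its regulator, changed by -0.15 (adjusted p = 0.92). Metallothioneins and hypoxia targets counted 2 of 16 higher and 1 lower, beside 7.84% and 6.91% of all genes. The 3 calls were 1 without dosed replicate 2, 4 or 5 or vehicle replicate 3, and 5 with arrayWeights. Mt2A was at 6.30 to 8.41 in vehicle and 7.21 to 9.51 when dosed and did not pass (1.43 ± 0.56, adjusted p = 0.11); Bnip3, a mitophagy receptor, rose by 0.69 ± 0.09.

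Of 18 clock genes, 3 rose and 2 fell. Npas2, a partner of BMAL1, fell by 2.67 ± 0.25, from 5.11 to 5.78 in vehicle to 2.46, 3.29, 3.80, 2.28 and 1.97. Bmal1 itself fell by 0.60 ± 0.09, and Nr1d2, a repressor of Bmal1, rose by 0.87 ± 0.21. Another Nr1d2 probe set was also called higher (0.79), and a dim one did not pass (0.09). The labels used here give no hour of death. Cytosolic ribosomal protein genes counted 6 of 19 higher, beside 7.84% of all genes, with changes of at most 0.40. That count was 1 without dosed replicate 5 and 2 without vehicle replicate 1 or 4. Proteasome subunits counted 4 of 30 lower and none higher, beside 6.91% of all genes called lower, with Psmd1 falling by 0.43 ± 0.10. The count was 2 when only the 10 arrays compared were fitted, 6 without vehicle replicate 5 and 8 with arrayWeights. Respiratory chain and ATP synthase genes counted 2 of 34 higher and 3 lower, near the 7.84% and 6.91% of all genes, and all by less than 0.30. None of the 34 was called when only the 10 arrays compared were fitted. The 5 calls were 2 without dosed replicate 1 or 4 or vehicle replicate 1 or 3, and 3 without vehicle replicate 2 or 4.

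Other genes among the largest rises and falls lay outside these lists. Car2, carbonic anhydrase 2, was at 5.08 to 5.33 in vehicle and at 8.67, 8.05, 7.80, 7.87 and 7.39 when dosed, a rise of 2.71 ± 0.18. Isyna1, the inositol phosphate synthase, rose by 2.55 ± 0.18, from 3.74 to 4.29 up to 6.24 to 6.70. Gucy2c, the receptor for guanylin in the gut, rose by 1.94 ± 0.14, from 1.37 to 1.82 up to 2.79 to 3.86, and Ttc39a rose by 2.22 ± 0.23. Slc34a2, a phosphate carrier, fell by 2.90 ± 0.26, from 6.48 to 7.74 to 3.86 to 4.70. Sez6 fell by 2.25 ± 0.24, Serpinb9b, of the serine protease inhibitor family, fell by 2.16 ± 0.41, and Stac3 fell by 2.02 ± 0.49. All 30 of these largest changes were called in each fit that left out 1 array and in each alternative fit that held them. Dhrs7l1, which the naming rule skipped for its symbol, was called with a change of -3.39 ± 0.79. Of the 9780 probe sets without a gene symbol in the annotation used, 566 (5.79%) were called, 251 higher and 315 lower.

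Markers of other cell types were measured in the same arrays, where 7.84% of all genes were called higher and 6.91% lower. Preneoplastic foci and fetal liver markers counted 8 of 15 higher and none lower, but 6 of these 8 are NRF2 targets named above, and the others were Akr1b10 and Ggt1. The fetal genes Afp (-0.08) and H19 (1.48, adjusted p = 0.18) did not pass. Hepatocyte markers counted 2 of 11 lower and none higher, with mean levels of 11.66 to 11.92 over the vehicle arrays and 11.54 to 11.65 over the dosed arrays. Cholangiocyte markers counted 3 of 9 higher: Epcam rose by 1.84 ± 0.12, from 3.60 to 4.53 up to 5.75 to 6.25, Anxa4 rose by 0.72 ± 0.07 and Cldn7 by 0.39 ± 0.11 (adjusted p = 0.0226 by limma). The call of Cldn7 was lost in 5 of 18 alternative fits, among them those without dosed replicate 4 or 5 or vehicle replicate 1 or 2. The keratins of bile ducts, Krt19 (2.65 in vehicle and 2.30 when dosed) and Krt7 (1.24 and 1.19), were dim and did not pass. The mean level of that list was 2.83 to 3.05 in vehicle and 3.14 to 3.29 when dosed. Stellate cell markers counted 6 of 17 lower and none higher, at mean levels of 4.51 to 4.70 and 4.17 to 4.48, with Pdgfrb falling by 0.72 ± 0.11 in 1 of its 3 probe sets. Kupffer cell markers counted 2 of 14 lower, at 6.92 to 7.03 and 6.75 to 6.84. That count was 1 without dosed replicate 1 or vehicle replicate 1 or 3 or with the beta-actin gauge in the fit, and 4 without dim probe sets. No marker of sinusoidal endothelium (12 measured), lymphocytes (14) or neutrophils (7) was called. In the limma fit, 1 endothelial marker, 1 lymphocyte marker and no neutrophil marker had an unadjusted p under 0.05. Acinar markers of the pancreas counted 2 of 13 lower, at mean levels of 2.11 or less in every array, and 1 without dosed replicate 2, 4 or 5 or vehicle replicate 1, 3 or 5. The part of these cells in the results was not tested.

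The next question was what changed between 60 and 120 mg/kg. In that comparison 109 of 14217 genes were called higher (0.767%) and 82 lower (0.577%), or 260 probe sets. NRF2 targets counted 13 of 29 higher and none lower, with a median of 0.42, and cell division genes 2 of 36 higher with a median of 0.43. Akr1b8 rose by 3.33 ± 0.26 over this step, from 5.04, 3.61, 3.33, 3.58 and 4.10 at 60 mg/kg. Car2 rose by 2.34 ± 0.18, from 4.95 to 6.36 at 60 mg/kg, where its change against vehicle was 0.37 (adjusted p = 0.329). Gucy2c rose by 1.46 ± 0.14, Nqo1 by 1.31 ± 0.19 and Akr7a3 by 1.25 ± 0.23. The largest falls were those of Inmt (2.24 ± 0.38 lower), Npas2 (1.60 ± 0.25 lower), Cyp2c11 (1.54 ± 0.39 lower), Sez6 (1.35 ± 0.24 lower) and Car3 (1.07 ± 0.23 lower). The call of Cyp2c11 (adjusted p = 0.0474) was lost in 11 of 19 alternative fits. That of Car3 (adjusted p = 0.0158) was lost in 4 of 19, among them the fits without dosed replicate 2 or 4 or 60 mg/kg replicate 3. Of the 30 largest changes, 15 were called between the doses, 9 rises and 6 falls. These genes were picked by their change at 120 mg/kg. The comparison of doses uses the same 120 mg/kg arrays, which favours such calls.

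Other genes with large changes against vehicle were not called between these doses. Gstp1 was already at 10.40 to 11.47 at 60 mg/kg, below all 5 arrays at 120 mg/kg. Its further change of 1.07 did not pass the adjusted test (adjusted p = 0.119), although its 95% interval, 0.42 to 1.72, leaves out 0. The intervals of the next 4 genes held 0: Gstt3 differed by 0.09 (interval -0.27 to 0.44), Abcc3 by 0.11 (-0.53 to 0.74), Scd by 0.07 (-0.62 to 0.75) and Serpinb9b by 0.10 (-0.73 to 0.92). The intervals of Mup5 (-2.21 to 1.53) and Obp3 (-2.32 to 1.96) are too wide to tell.

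**Figure D4:**
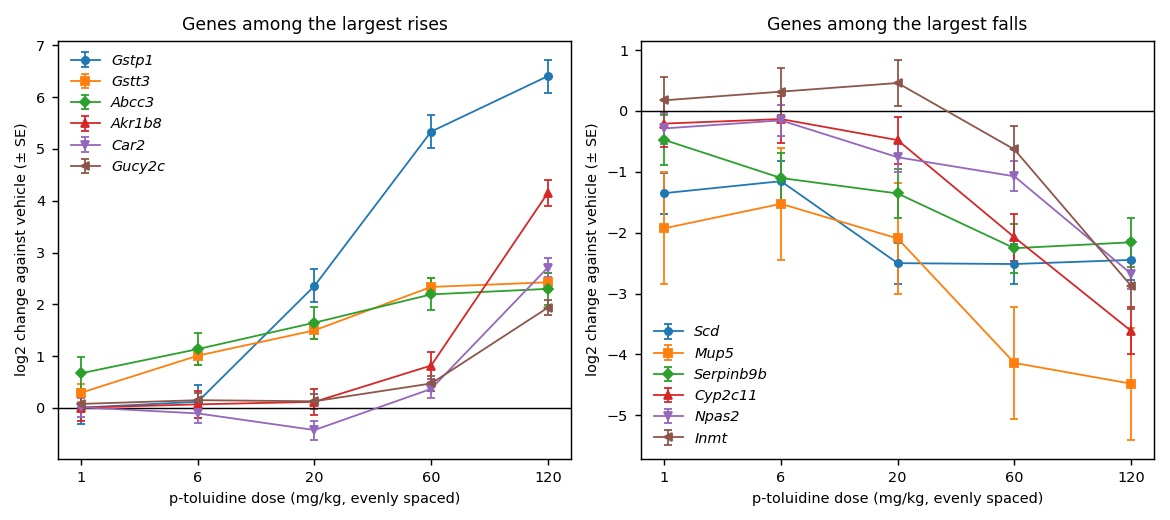
Change against the shared vehicle group (log2, ± SE of the fit) at 1, 6, 20, 60 and 120 mg/kg for 6 genes of the largest rises and 6 of the largest falls; doses are evenly spaced on the axis. Gstp1, Gstt3, Abcc3 and Scd had changed by 20 mg/kg, and Akr1b8, Car2, Gucy2c and Inmt moved mainly between 60 and 120 mg/kg.

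At the lower doses, against the same vehicle arrays, 938 genes were called at 60 mg/kg, 154 at 20 mg/kg and none at 6 or 1 mg/kg. At 6 and 1 mg/kg, 2557 and 1992 of 31042 probe sets had an unadjusted limma p under 0.05. A share of about 0.05 would do so by chance alone. Gstp1 changed by 0.00, 0.12, 2.36, 5.34 and 6.41 from the lowest dose to the highest, and was called from 20 mg/kg up. Scd, -1.35, -1.15, -2.50, -2.51 and -2.45 over the same doses, was also called from 20 mg/kg up. Akr1b8 changed by 0.01, 0.07, 0.12, 0.82 and 4.15, and was called at 120 mg/kg alone. Inmt changed by 0.18, 0.32, 0.46, -0.63 and -2.87 and was likewise called at 120 mg/kg alone. These comparisons share their vehicle arrays, vehicle replicate 5 included.

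The response to p-toluidine was set beside that to DMPT at the same 120 mg/kg, a matched dose by mass and not by number of molecules. This was the 1 pair of chemicals compared, and the groups share no array. DMPT called 1845 genes against its own vehicle. For the 2098 genes called with p-toluidine, 2033 (96.9%) changed in the same direction with DMPT, and the Pearson correlation of the changes was 0.94. These genes were picked by their p-toluidine values, and 1724 of them changed more with p-toluidine. Over all 14217 genes, 10082 (70.9%) changed in the same direction, the correlation was 0.82 and 7641 changed more with p-toluidine. Among the 30 largest changes, also picked by their p-toluidine values, the 95% interval of the difference between chemicals held 0 for 21. Over all 14217 genes it held 0 for 13260.

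The difference itself was called for 2 of 14217 genes (0.0141%), both members of the Cyp3a family and both lower with p-toluidine. Cyp3a2 fell by 1.16 with p-toluidine and by 0.38 with DMPT, a difference of -0.79 ± 0.12 (adjusted p = 0.000455, interval -1.02 to -0.55). Cyp3a23-3a1 was at 10.74, 10.56, 10.74, 10.92 and 10.87 in vehicle and at 9.84, 10.32, 9.84, 10.02 and 9.85 with p-toluidine. It fell by 0.79 with p-toluidine and changed by -0.11 with DMPT, a difference of -0.68 ± 0.13 (adjusted p = 0.0446), a call lost in 18 of 29 alternative fits. For Gstp1 the changes were 6.41 and 5.91, with an interval of the difference from -0.49 to 1.49, and for Nqo1 2.82 and 2.72, with an interval from -0.45 to 0.66. For Gstt3 they were 2.43 and 2.47 (-0.61 to 0.52) and for Scd -2.45 and -2.68 (-1.15 to 1.61). Intervals that left out 0 without passing the adjusted test were those of Akr1b8 (0.09 to 2.06), Isyna1 (0.34 to 1.24) and Gucy2c (0.36 to 1.09) among the rises. Among the falls they were those of Cyp2c11 (-3.05 to -0.72), Slc34a2 (-1.96 to -0.27), Inmt (-2.34 to -0.26), Npas2 (-1.73 to -0.51), Sez6 (-1.73 to -0.52) and Sult1c3 (-1.56 to -0.38). In all 9 the change was larger with p-toluidine, but these genes had been picked by the size of their p-toluidine change.

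**Figure D5:**
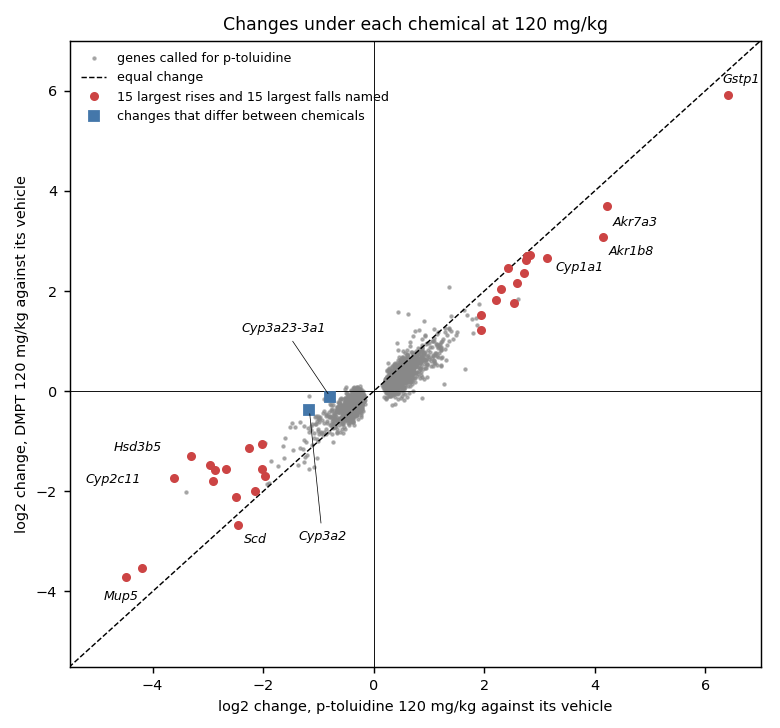
Change at 120 mg/kg (log2) with p-toluidine (horizontal) against DMPT (vertical), each against its own vehicle, for the 2098 genes called with p-toluidine. Red points are the 15 largest rises and 15 largest falls with p-toluidine, and blue squares the 2 Cyp3a genes whose changes differed. Of the 30 red points, 28 lie on the side of the dashed line of equal change where p-toluidine changed more. They were picked by their p-toluidine changes, which favours that side. Over all 14217 genes, 7641 lie on it.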

How the data were processed

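Total RNA of rat liver was labelled and hybridised to one-colour Affymetrix 3′ arrays, 5 per group, per the labels' protocols. The deposited values are log2 expression values by RMA, per the submitters' processing notes, which give no version; the log2 scale was inferred from the values. The medians of the p-toluidine and DMPT arrays differ, as they would if each set had been normalized on its own, so levels were compared within a chemical and only changes between chemicals. The study's own test, ORIOGEN, was not used here. Of 31099 probe sets, 57 controls were left out and no filter on dim values was set.

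limma 3.58.1 (R 4.3.3) was fitted to group means, with 30 arrays and 6 groups for p-toluidine. DMPT against its vehicle and the difference between chemicals were fitted with 60 arrays and 12 groups. p-values were adjusted by Benjamini-Hochberg over 31042 probe sets. The number of arrays limits the precision. Data for 120 mg/kg against vehicle were simulated over 31042 probe sets, with 200 changed and normal noise drawn independently for each probe set. Of true rises, 78% of those of 0.5 log2 and 100% of those of 1 were called. So were 98% of falls of 1 and 0.0292% of unchanged probe sets. The real arrays had many more calls and a vehicle array that stood apart, so these shares need not hold for them.

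Symbols came from the platform annotation, with 20826 probe sets of 1 symbol, 436 of several and 9780 of none; 20758 of the first had a gene ID found in RefSeq. Where several 1-symbol probe sets shared a gene, the one brightest on average across the 60 arrays stood for it. Named are the 15 largest called rises and falls whose 5 dosed arrays lie on 1 side of the vehicle mean (provisional symbols, or those ending in l and digits, skipped), up to 4 members of each list by size of change, the 5 largest called steps between doses each way, and the called differences between chemicals; members named beyond these were chosen after their values were seen. The lists and the comparison itself were chosen with earlier results of these data known. The rule passed over Akr1b7 among the largest rises, since a dosed array lay below the vehicle mean. Replicate numbers were checked for pairing: same-numbered dosed and vehicle arrays deviated from their group means with correlations of -0.08 to 0.08, so the arrays were not treated as paired.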

Additional observations from a re-analysis of the deposited data

Results flagged for a closer look

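Among 310 groups of 5 arrays, from 155 named genes, 25 held an array whose gap to its nearest neighbour was more than 0.71 of the group's range, and chance alone gives about 5% of groups. Vehicle replicate 5 was the far array in 8 of the 13 vehicle cases. In that array the low values were those of Mup5 (3.05), Cyp2c11 (9.37), Sult1e1 (9.56), Akr1c1 (5.36), Stat2 (6.25) and Igf1 (10.94), and the high values those of A2m (7.54) and Mt2A (8.41). The other vehicle cases were Inmt in replicate 4 (7.20, high), Mvd in replicate 3 (4.20, low), Nkg7 in replicate 3 (2.00, low), Nr1d2 in replicate 2 (4.30, low) and Bmal1 in replicate 2 (4.72, low).

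At 120 mg/kg, replicate 5 was the far array for Mup5 (1.87, low), Aqp7 (4.93, high), Gstm1 (12.39, high), Rplp0 (10.82, high) and Cd3g (1.79, low). Replicate 1 was far for Slc40a1 (8.28, high), Stat2 (7.06, high) and Nkg7 (2.16, low), replicate 2 for Acot1 (3.71, low) and Ifit2 (6.75, high), replicate 3 for Slc34a2 (4.70, high) and replicate 4 for Msmo1 (9.63, high).

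The response to p-toluidine differed from that to DMPT at 120 mg/kg in Cyp3a2, by -0.79, and in Cyp3a23-3a1, by -0.68, both by the limma test of the difference itself.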

How the results depend on the processing

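The comparison of 120 mg/kg with vehicle gave 2793 to 3697 called probe sets over 8 alternative fits and 2616 to 3291 when 1 array was left out. Of the values of single named genes against vehicle under all alternatives, 2760 kept their side of the threshold, 127 lost their call and 40 gained one. None of the called ones changed sign, and the sign of values called in neither fit was not counted. Between 120 and 60 mg/kg, 75 probe sets were called in place of 260 when only the 10 arrays of these groups were fitted. The count was 150 to 307 when 1 array was left out, the fewest without dosed replicate 1 (150) or 60 mg/kg replicate 3 (154). The difference from DMPT, 2 probe sets, became 21 with only the arrays compared, 4 with the beta-actin gauge in the fit, 1 with arrayWeights or with each array centred on its median, and 1 to 8 when 1 array was left out. The Gapdh gauge differed by -0.0595 (exact permutation p = 0.183) and did not pass where beta-actin did. The cause of these shifts was not tested. With the replicate number as a block, 3207 probe sets were called against vehicle, 252 between the doses and 1 for the difference between chemicals. Same-numbered arrays did not correlate best with each other in any of the pairs of groups. Signals of dim genes such as Akr1b8, Gucy2c and Ttc39a in vehicle lie near the low end of the array's range, which limits the precision of their folds.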
